A study of Mus musculus with 4 samples.

Results

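Mitosis genes encode the machinery that condenses chromosomes, builds the spindle, attaches and separates the chromatids and divides the cell. The set described here was a list of 40 such genes, each read through the probe set that carried its symbol alone, and through the one with the highest mean where there were several. Of these, 39 were measured, out of 19938 genes in all, and Ccnb1, the gene of cyclin B1, was not analysed here. The genes were read in dendritic cells (DCs), the antigen-presenting cells that start T cell responses, cultured for 8 days from C57BL/6 bone marrow in 200 ng/ml Flt3 ligand, the cytokine that drives DC development. The 4 groups, with 1 Affymetrix array each, were CD8-equivalent DCs without miR-142 (genotype miR-142-/-, ko), CD8-equivalent DCs with it (miR-142+/+, wt), CD4-equivalent DCs of ko and CD4-equivalent DCs of wt. Cells were sorted as B220-negative and CD11c-positive, CD8-equivalent DCs as CD172-negative, CD24-positive and CD11b-low, and CD4-equivalent DCs as CD172-positive, CD24-low and CD11b-positive. All groups share the strain, the culture and the ligand. The number of mice and of cultures per array is not given in the labels, and neither is whether the subsets of a genotype were sorted from a common culture. They name the ko as miR-142-/- and give no more on how the deletion was made or where it acts.

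Mitotic genes are switched on together late in the cell cycle, in G2 and mitosis, and their messages are low in resting cells. The transcription factors B-Myb and FoxM1 act with the MuvB core complex on a promoter element, the cell cycle genes homology region (CHR), and in resting cells the related DREAM complex holds the same promoters down. Conventional DCs arise from dividing precursors, and most of them stop dividing as they mature, so RNA of a DC culture holds mitotic messages from its dividing part. In such bulk RNA a larger share of dividing cells and more mitotic RNA per cell cannot be told apart.

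The deleted microRNA is shown for orientation, because it is what separates the genotypes. Its mature strands in RefSeq (GRCm38.p6, chromosome 11, plus strand) are given with the seed, bases 2 to 8, in capitals.
mmu-miR-142a-5p: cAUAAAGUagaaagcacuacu
mmu-miR-142a-3p: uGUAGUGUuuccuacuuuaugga
The Mir142 probe set read 4.79 in ko and 9.87 in wt CD8-equivalent DCs, and 4.92 in ko and 10.37 in wt CD4-equivalent DCs, so both ko arrays lay below the floor of 5.68. That floor, the median of all probe sets with 1 symbol, is used here as the limit under which a value says little. Whether the probe set lies in the deleted part is not given in the labels. The sort marker genes went with the subset labels: Sirpa, which encodes CD172a, differed between CD8- and CD4-equivalent DCs by -2.25 in ko and -2.42 in wt, and Itgam, which encodes CD11b, by -1.87 and -2.00. Cd24a was higher in CD8-equivalent DCs by 0.73 in ko and 1.78 in wt. The numbers are RMA values on a log2 scale, on which a difference of 1 is 2-fold, and the number of arrays limits their precision.

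The promoters of the measured genes were searched for the elements named above, and the result is given before the levels. All of these genes had the same lowest and the same highest array. Whether the promoter elements have a part in that order was not tested. The windows run from 250 bases before to 50 bases after the RefSeq start (GRCm38.p6) and were found for 33 of the 39 genes. The CHR was searched as TTTGAA or TTCGAA, the CCAAT box, bound by NF-Y, as CCAAT, and an E2F site as TTTGGCGC or TTTCGCGC, all on both strands. Matches of different motifs can share letters and were counted separately. A CHR match lay in 26 of the 33 genes (78.8%), against 20.2% of 17492 protein-coding genes and 21.7% of all 27025 genes of the table. A CCAAT box lay in 24 (72.7%), against 42.3% of protein-coding genes. Both lay in 22 (66.7%), against 8.22%. The 7 genes with a window and no CHR match were Nek2, Melk, Birc5, Mad2l1, Nuf2, Cenpe and Nusap1. The E2F site was found in Cdk1 alone (3.03%, against 1.21%). In the 26 replication and S-phase genes with a window, the same search found a CHR in 5 (19.2%) and an E2F site in 9 (34.6%).

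The promoters of the 5 genes with the largest mean ko minus wt difference among those with a CHR match show the arrangement. Each is printed 5′ to 3′ along the gene's strand, with CHR matches (TTTGAA, or TTCAAA on the other strand) and CCAAT boxes in capitals.
Anln, chr9:22389157-22389456, minus strand: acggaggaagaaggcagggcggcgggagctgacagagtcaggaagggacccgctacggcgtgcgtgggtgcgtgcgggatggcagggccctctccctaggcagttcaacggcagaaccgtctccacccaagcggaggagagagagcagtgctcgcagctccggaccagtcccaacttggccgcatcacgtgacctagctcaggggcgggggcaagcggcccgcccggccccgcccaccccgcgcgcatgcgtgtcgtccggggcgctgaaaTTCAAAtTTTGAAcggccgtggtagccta
Cenpf, chr1:189688037-189688336, minus strand: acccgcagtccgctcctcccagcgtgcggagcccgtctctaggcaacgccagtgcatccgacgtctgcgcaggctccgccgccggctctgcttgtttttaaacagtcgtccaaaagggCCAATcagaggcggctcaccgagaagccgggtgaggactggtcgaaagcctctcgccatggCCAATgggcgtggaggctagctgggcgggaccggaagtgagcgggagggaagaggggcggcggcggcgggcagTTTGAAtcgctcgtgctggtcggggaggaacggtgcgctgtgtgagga
Ect2, chr3:27153829-27154128, minus strand: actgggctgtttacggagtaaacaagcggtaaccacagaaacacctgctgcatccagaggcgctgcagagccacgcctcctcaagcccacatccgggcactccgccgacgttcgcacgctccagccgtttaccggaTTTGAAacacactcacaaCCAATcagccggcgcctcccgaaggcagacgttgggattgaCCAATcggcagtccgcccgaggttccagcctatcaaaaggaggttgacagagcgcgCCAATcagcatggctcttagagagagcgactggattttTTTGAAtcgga
Ttk, chr9:83834439-83834738, plus strand: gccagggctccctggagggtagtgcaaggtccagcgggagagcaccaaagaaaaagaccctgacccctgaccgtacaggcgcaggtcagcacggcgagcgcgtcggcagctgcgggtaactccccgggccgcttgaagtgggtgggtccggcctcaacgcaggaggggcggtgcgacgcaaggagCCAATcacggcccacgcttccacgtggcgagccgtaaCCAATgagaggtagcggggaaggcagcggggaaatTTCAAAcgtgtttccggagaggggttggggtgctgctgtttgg
Prc1, chr7:80294201-80294500, plus strand: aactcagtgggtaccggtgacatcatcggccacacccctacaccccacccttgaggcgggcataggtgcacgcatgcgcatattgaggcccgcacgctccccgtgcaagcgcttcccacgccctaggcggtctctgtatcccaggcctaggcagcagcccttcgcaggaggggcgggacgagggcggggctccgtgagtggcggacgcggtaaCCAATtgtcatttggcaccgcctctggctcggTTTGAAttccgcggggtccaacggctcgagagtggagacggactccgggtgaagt
Anln held 2 CHR matches next to each other and no CCAAT box, Cenpf held 1 CHR and 2 CCAAT boxes, Ect2 held 2 and 3, Ttk held 1 and 2, and Prc1 held 1 of each. Taking the first listed window of each gene, 27 of 35 CHR matches of the mitosis genes (77.1%) lay between 100 bases before the start and the window's end, where 41.2% of the 6066 matches in all windows lay. The median CHR match began at base 3 after the start and the median CCAAT box at base -58. A match is a description of the letters in these windows, and no binding was measured.

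**Figure D1:**
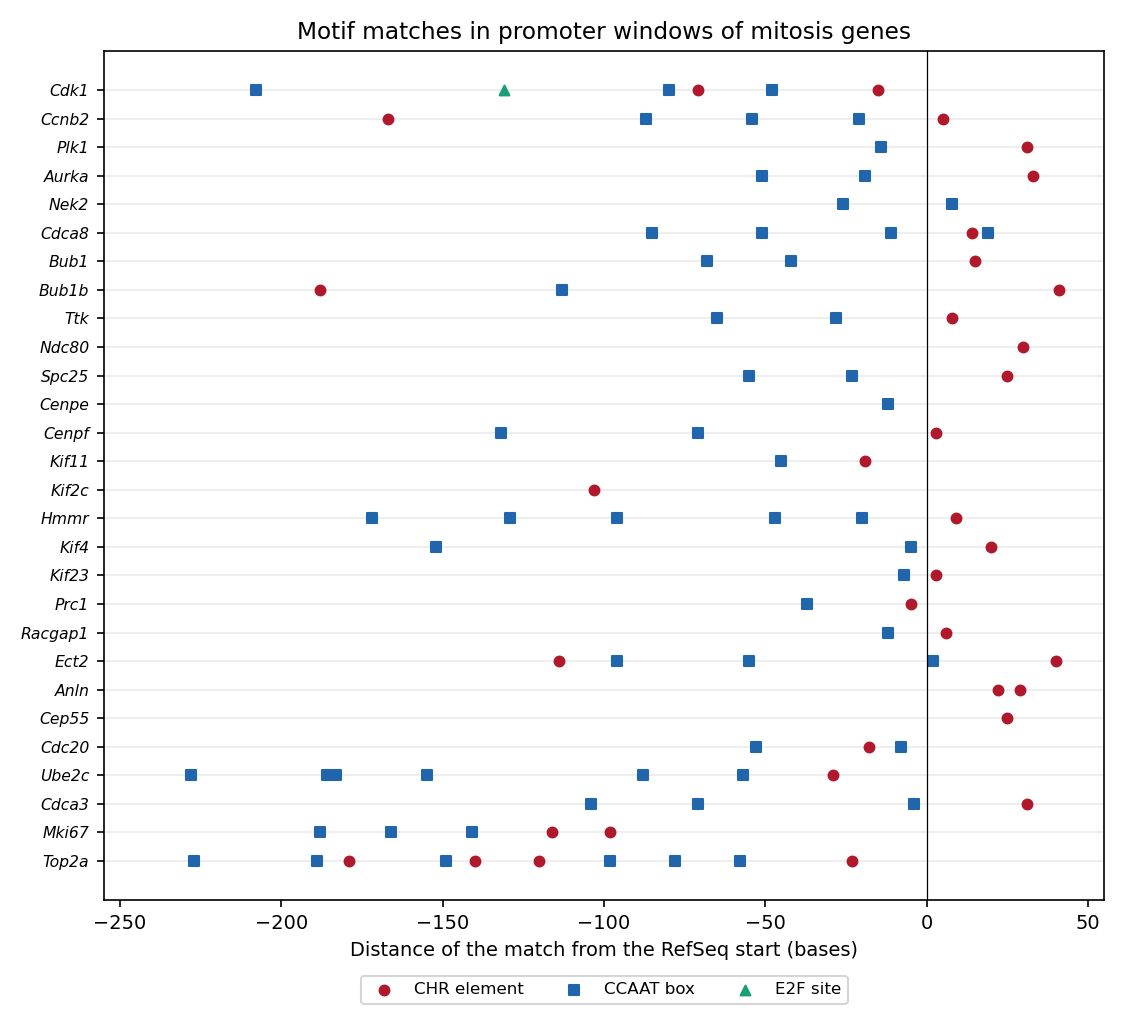
Position of CHR (red circles), CCAAT (blue squares) and E2F (green triangle) matches relative to the RefSeq start, in bases, in the first listed promoter window of 28 mitosis genes that hold any match. The other 5 genes with a window held none. Most CHR matches sit close to the start, with CCAAT boxes before them.

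On every array the mitosis genes were well expressed. All 39 lay above the floor on all 4 arrays, with values from 7.46 to 12.27. All 39 read lowest in wt CD4-equivalent DCs and highest in ko CD8-equivalent DCs. Being higher in ko in both subsets and in CD8-equivalent DCs in both genotypes, which gives this order, held for 14.1% of the 10239 genes at or above the floor on at least 1 array. Between these ends, ko CD4-equivalent DCs read below wt CD8-equivalent DCs in 35 of the 39 genes, an order of all 4 arrays found in 10.4% of the 10239 genes. The 4 exceptions were Cenpf, Kif23, Prc1 and Anln. By the same order, the mean subset difference was larger than the mean genotype difference in 35 members and smaller in 4, which adds no further count. The median differences were 0.59 for subset and 0.36 for genotype on the log2 scale. Their gap depended on the scaling of the arrays. After cyclic loess the members' median genotype difference in CD4-equivalent DCs (0.55) was above their median subset difference in ko (0.48). The subset and genotype comparisons use the same 4 arrays.

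**Figure D2:**
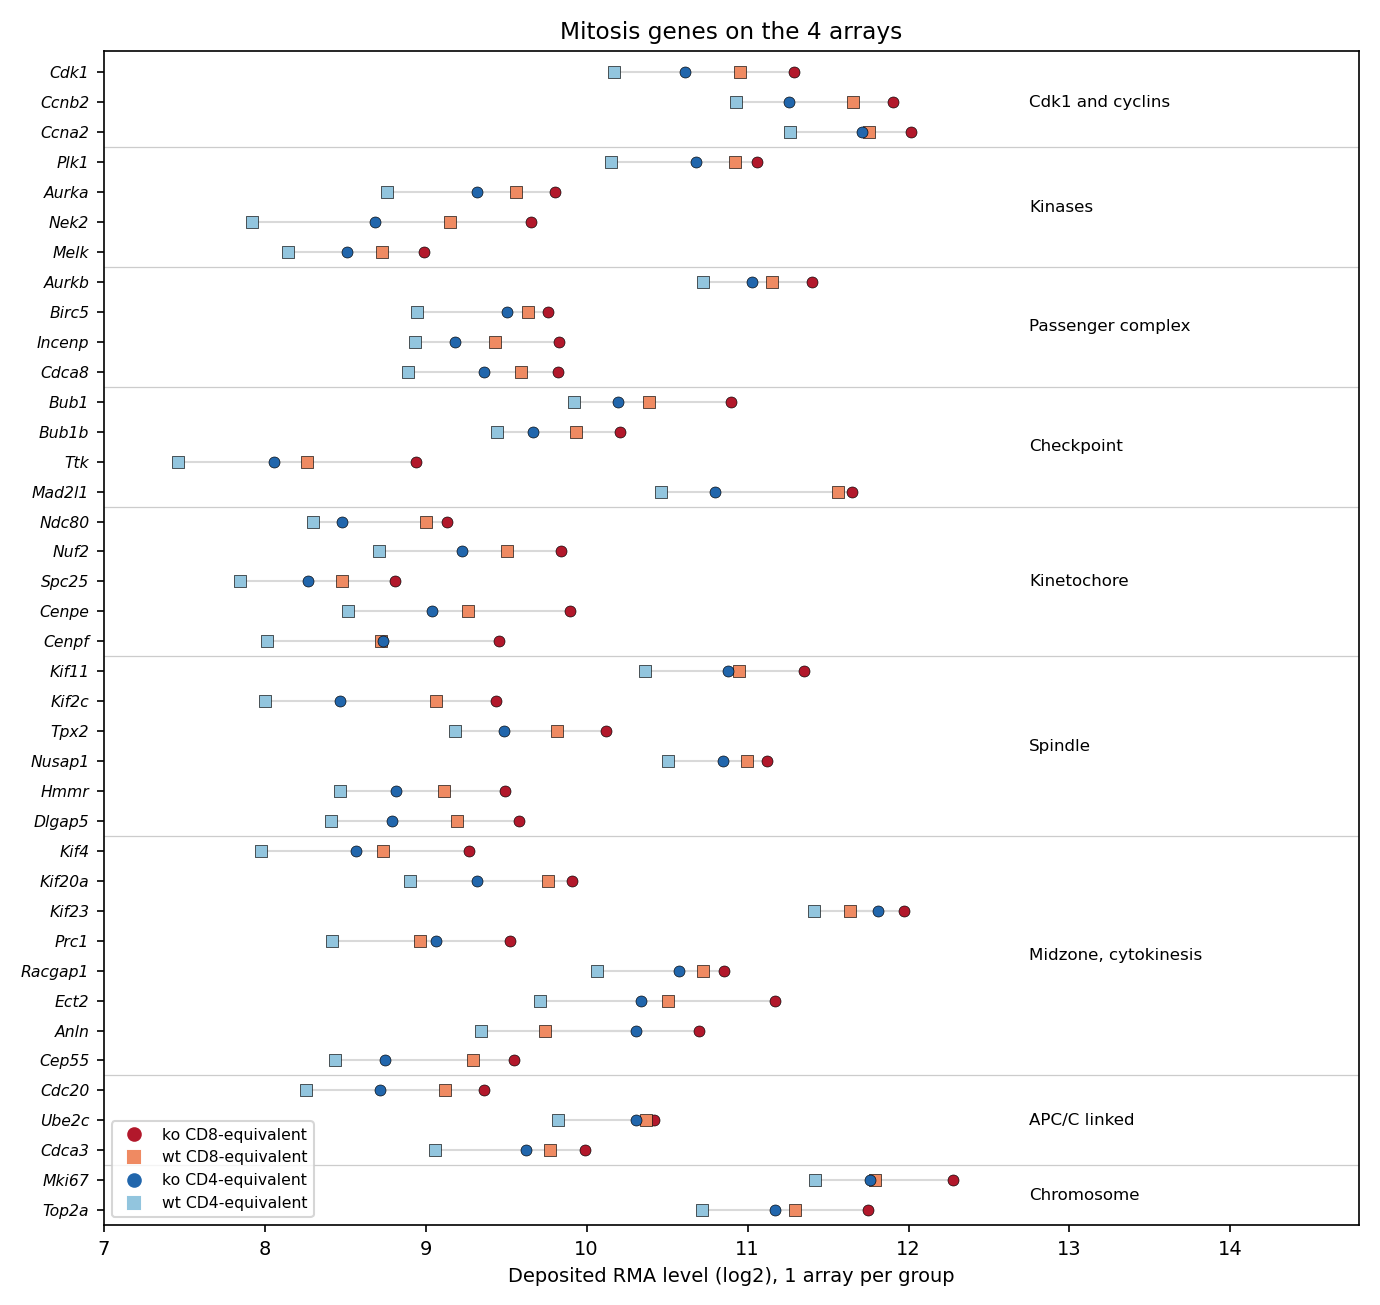
Deposited log2 RMA level (x axis) of each of the 39 mitosis genes (rows, grouped by role), with 1 point per array: ko as dark circles and wt as light squares, with CD8-equivalent DCs in red and orange and CD4-equivalent DCs in dark and light blue. In every row the wt CD4-equivalent array is leftmost and the ko CD8-equivalent array rightmost; levels are read along a row only, since each row is another probe set.

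The study compared ko with wt within each subset. In CD8-equivalent DCs all 39 mitosis genes had a higher value in ko than in wt, by 0.05 to 0.96 on the log2 scale, with a median difference of 0.33 (1.26-fold). Of all 9972 genes compared there, 50.7% lay above 0 and the median was 0.004. In CD4-equivalent DCs all 39 again read higher in ko, by 0.18 to 0.96, with a median of 0.45 (1.37-fold), while 36.2% of 9978 genes lay above 0 and the median was -0.08. Across both subsets, 39 of 39 members and 24.5% of the 10239 genes had the higher value in ko. In neither subset did a member reach 2-fold, where 1.14% (CD8-equivalent) and 1.39% (CD4-equivalent) of all genes exceeded wt by 2-fold or more, and 1% and 0.952% lay below wt by as much. At 1.5-fold, 5 members were higher in ko CD8-equivalent DCs (Ttk, Cenpe, Cenpf, Ect2 and Anln), where 4.61% of all genes were. In CD4-equivalent DCs there were 7 (Nek2, Ttk, Cenpf, Kif4, Prc1, Ect2 and Anln), where 3.98% of all genes were, and 0 members were lower by that much in either subset, where 3.48% and 3.72% of all genes were. Each of these values sets 1 array against another, with no replicate behind it.

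Taking the subsets as repeats of the genotype difference, limma with Benjamini-Hochberg adjustment over 10239 genes called 0 of 39 mitosis genes, where it called 0.107% of all genes higher and 0.0586% lower in ko. Their adjusted p-values ran from 0.061 to 0.587. At an unadjusted p under 0.05, 27 of the 39 were higher in ko and 0 lower, against 7.34% and 8.27% of all genes. The model has 1 residual degree of freedom, so a member that was not called may still differ. That residual is how far ko minus wt differed between the subsets, and 3.98 prior degrees of freedom come from the spread over all genes fitted. The SE and p-values here and below thus measure no spread between replicate arrays, and part of the spread used may be technical. Under limma's trended and robust prior 5 members were called higher in ko, Anln, Cenpf, Ect2, Mki67 and Top2a, and with a floor 1 log2 unit higher Anln alone was. Without a subset term in the model 0 were called, and 1 of the 39 was higher at an unadjusted p under 0.05.

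**Figure D3:**
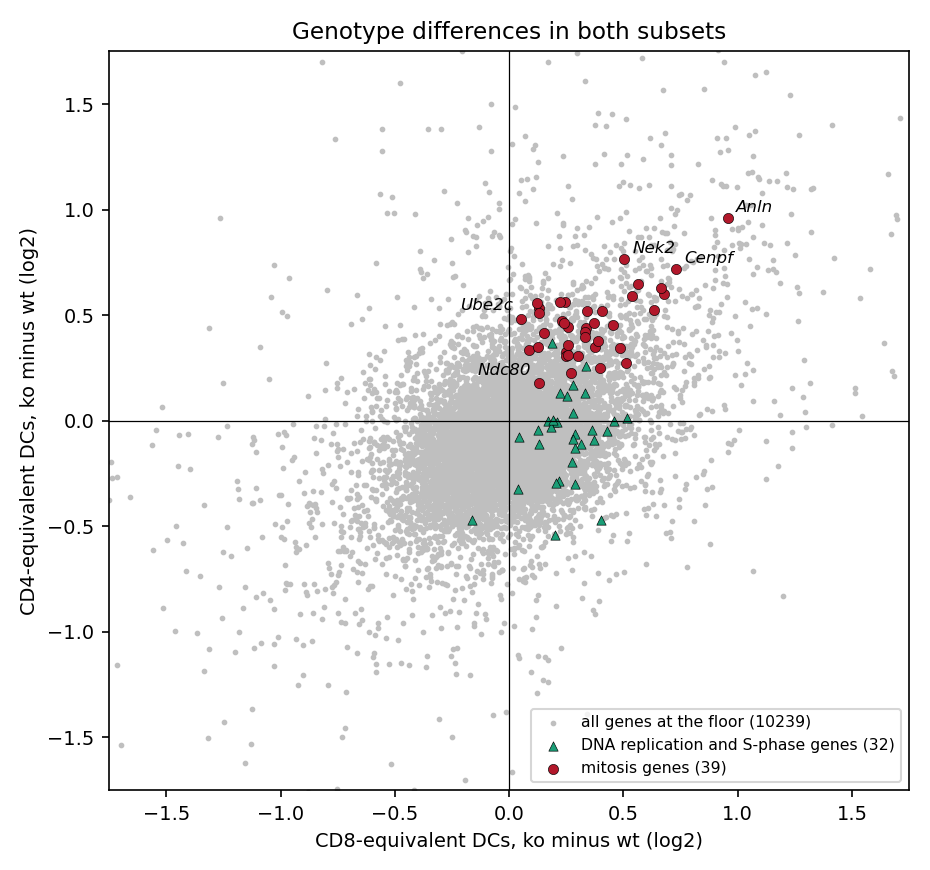
Difference of ko minus wt (log2) in CD8-equivalent DCs (x axis) and in CD4-equivalent DCs (y axis) for all 10239 genes at the floor (grey), replication and S-phase genes (green triangles) and mitosis genes (red circles). All 39 mitosis genes lie in the upper right part, while the S-phase genes spread across 0 on the y axis. Of all genes, 83 lie beyond the axes.

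The member with the largest mean genotype difference belongs to the genes of the spindle midzone and of cytokinesis, the last step in which the cell is cut apart. Anln encodes anillin, the scaffold that ties actin, myosin and septins into the contractile ring. Its level was 10.70 in ko and 9.74 in wt CD8-equivalent DCs, and 10.31 in ko and 9.35 in wt CD4-equivalent DCs. Both ko arrays were higher than both wt arrays. Within CD8- and CD4-equivalent DCs ko exceeded wt by 1.94-fold and 1.95-fold. The mean difference was 0.96 ± 0.12 (SE), with an adjusted p of 0.0609 by limma. Ect2, the exchange factor that activates RhoA at the cell equator, differed between ko and wt by 0.67 and 0.63 (CD8- and CD4-equivalent). Prc1, which bundles the antiparallel microtubules of the midzone, differed by 0.56 and 0.65, and the chromokinesin Kif4, its partner, by 0.54 and 0.59. Cep55, which brings the final abscission machinery to the midbody, read 9.55 in ko and 9.29 in wt CD8-equivalent DCs, and 8.74 in ko and 8.43 in wt CD4-equivalent DCs. There the genotypes differed by 0.26 and 0.31, the smallest mean of the group. Kif23 and Racgap1, which form the centralspindlin complex, differed by 0.33 and 0.40 and by 0.13 and 0.51, and the midzone kinesin Kif20a by 0.15 and 0.42.

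Among kinetochore genes, whose products hold microtubules to the centromere, Cenpf stood highest in its genotype difference. Cenpf encodes a large coiled-coil protein of the outer kinetochore and read 9.46 in ko and 8.72 in wt CD8-equivalent DCs, and 8.73 in ko and 8.01 in wt CD4-equivalent DCs. The ko value exceeded wt by 1.66-fold and 1.64-fold, and its mean difference of 0.73 ± 0.12 (SE) had an adjusted p of 0.0859 by limma. The kinetochore motor gene Cenpe differed by 0.63 and 0.53. The other members encode subunits of the NDC80 complex, the main microtubule coupler: Nuf2 differed by 0.34 and 0.52, Spc25 by 0.33 and 0.42 and Ndc80 by 0.13 and 0.18. Ndc80 itself read 9.13 in ko and 9.0 in wt CD8-equivalent DCs, and 8.48 in ko and 8.30 in wt CD4-equivalent DCs. Its genotype difference was the smallest mean of all 39 members (adjusted p = 0.587 by limma).

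The spindle checkpoint delays chromatid separation until all kinetochores are attached. Ttk, also called Mps1, the kinase that starts the signal, read 8.94 in ko and 8.26 in wt CD8-equivalent DCs, and 8.06 in ko and 7.46 in wt CD4-equivalent DCs. The ko arrays were higher by 1.6-fold and 1.52-fold (adjusted p = 0.107 by limma). Mad2l1, the checkpoint protein that binds Cdc20, read 11.65 in ko and 11.56 in wt CD8-equivalent DCs, and 10.80 in ko and 10.46 in wt CD4-equivalent DCs. In CD8-equivalent DCs the genotypes were 0.09 apart and in CD4-equivalent DCs 0.34. The kinase Bub1 differed by 0.51 and 0.27 and the Cdc20 inhibitor BubR1, gene Bub1b, by 0.27 and 0.23. Unlike most members, Bub1, Bub1b and Ttk had the larger difference in CD8-equivalent DCs, while Mad2l1 had it in CD4-equivalent DCs.

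Of the mitotic kinases, Nek2, which parts the centrosomes, had the largest difference. Nek2 read 9.65 in ko and 9.15 in wt CD8-equivalent DCs, and 8.69 in ko and 7.92 in wt CD4-equivalent DCs. The ko value was higher by 1.42-fold and 1.7-fold, and the adjusted p by limma was 0.13. Polo-like kinase 1, gene Plk1, differed by 0.13 and 0.53, and Aurora A, gene Aurka, by 0.24 and 0.56. Melk, a kinase of dividing and progenitor cells, read 8.99 in ko and 8.73 in wt CD8-equivalent DCs, and 8.51 in ko and 8.15 in wt CD4-equivalent DCs, a difference of 0.26 and 0.36.

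Cdk1, the kinase that drives entry into mitosis, and its cyclins had higher values in ko, though none passed the test. Cdk1 read 11.29 in ko and 10.95 in wt CD8-equivalent DCs, and 10.61 in ko and 10.17 in wt CD4-equivalent DCs. Its level in ko was 1.26-fold and 1.35-fold that of wt. Ccnb2, cyclin B2, read 11.90 in ko and 11.65 in wt CD8-equivalent DCs, and 11.26 in ko and 10.93 in wt CD4-equivalent DCs, with differences of 0.25 and 0.33. Cyclin A2, gene Ccna2, differed by 0.26 and 0.45. The adjusted p-values by limma for Cdk1, Ccnb2 and Ccna2 were 0.238, 0.34 and 0.283, above the threshold of 0.05.

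The chromosomal passenger complex, which corrects faulty attachments and later marks the midzone, had mean genotype differences from 0.28 to 0.35. Cdca8, borealin, read 9.82 in ko and 9.59 in wt CD8-equivalent DCs, and 9.36 in ko and 8.89 in wt CD4-equivalent DCs. Aurkb, the kinase of the complex, read 11.40 in ko and 11.15 in wt CD8-equivalent DCs, and 11.03 in ko and 10.72 in wt CD4-equivalent DCs. Cdca8 differed between genotypes by 0.23 and 0.47 and Aurkb by 0.25 and 0.31. Survivin, gene Birc5, differed by 0.12 and 0.56 and the scaffold gene Incenp by 0.40 and 0.25.

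Spindle genes ranged from Kif11, the motor that pushes the poles apart, to Nusap1, a microtubule bundler. Kif11 read 11.35 in ko and 10.95 in wt CD8-equivalent DCs, and 10.88 in ko and 10.36 in wt CD4-equivalent DCs, differences of 0.40 and 0.52. Nusap1 read 11.12 in ko and 11.00 in wt CD8-equivalent DCs, and 10.85 in ko and 10.50 in wt CD4-equivalent DCs, differences of 0.13 and 0.35. The spindle assembly factor gene Tpx2 differed by 0.30 and 0.31, the microtubule depolymerase gene Kif2c by 0.37 and 0.46, the spindle pole gene Hmmr by 0.37 and 0.35 and Dlgap5, which stabilises kinetochore fibres, by 0.39 and 0.38. In Tpx2, Hmmr and Dlgap5 the 2 subsets gave nearly the same difference.

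The anaphase-promoting complex (APC/C) is the ubiquitin ligase that ends mitosis. Cdca3, one of its targets, read 9.99 in ko and 9.77 in wt CD8-equivalent DCs, and 9.62 in ko and 9.06 in wt CD4-equivalent DCs. Ube2c, its ubiquitin-conjugating enzyme, read 10.42 in ko and 10.37 in wt CD8-equivalent DCs, and 10.30 in ko and 9.82 in wt CD4-equivalent DCs. Ube2c was the member with the smallest genotype difference in CD8-equivalent DCs, 0.05, against 0.48 in CD4-equivalent DCs. The activator gene Cdc20 differed by 0.24 and 0.46.

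Of the chromosome genes, Mki67, which encodes the proliferation marker Ki-67 that coats mitotic chromosomes, read 12.27 in ko and 11.79 in wt CD8-equivalent DCs, and 11.76 in ko and 11.42 in wt CD4-equivalent DCs. Top2a, the topoisomerase that untangles sister chromatids, read 11.75 in ko and 11.29 in wt CD8-equivalent DCs, and 11.17 in ko and 10.72 in wt CD4-equivalent DCs. The genotypes differed by 0.48 and 0.35 in Mki67 and by 0.46 and 0.45 in Top2a. Top2a has a second, dimmer probe set, which read 8.80 in ko and 8.74 in wt CD8-equivalent DCs, and 9.52 in ko and 8.92 in wt CD4-equivalent DCs. The probe sets gave the same sign for genotype but opposite signs for subset, so the subset difference of Top2a is uncertain: with both averaged it was 0.06 (adjusted p = 0.775 by limma).

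The size of the genotype difference varied between subsets. It was larger in CD4-equivalent DCs for 28 members and larger in CD8-equivalent DCs for 11. The difference of the differences, CD8- minus CD4-equivalent, had a median of -0.09 and ran from -0.43 to 0.24, where the median of all genes was 0.07, and no degree of freedom was left to test it. The members furthest to the CD4-equivalent side were Birc5 (-0.43), Ube2c (-0.43), Plk1 (-0.40) and Racgap1 (-0.38), and Bub1 (0.24) lay furthest to the other. Across the 39 members the ko minus wt values of CD8- and of CD4-equivalent DCs, taken from separate arrays that were normalised together, correlated with a Pearson r of 0.59 and a Spearman rho of 0.34, given as a description. Anln had the highest value in both.

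The other comparison was between the subsets within a genotype. In ko all 39 mitosis genes were higher in CD8- than in CD4-equivalent DCs, by 0.12 to 0.97, with a median of 0.59 (1.51-fold). Of 10118 genes compared, 62.8% lay above 0 and the median was 0.11. In wt all 39 were higher in CD8-equivalent DCs by 0.22 to 1.23, with a median of 0.70 (1.63-fold), while 54.8% of 9998 genes lay above 0 and the median was 0.04. Higher in both genotypes were 39 of 39 members and 46.5% of the 10239 genes. At least 2-fold higher in CD8-equivalent DCs were 0 members in ko, where 3.39% of all genes were, and 3 in wt, Nek2, Mad2l1 and Kif2c, where 2.1% were. None of the members was 2-fold lower, where 3.9% (ko) and 3.14% (wt) of all genes were. At 1.5-fold there were 20 members in ko and 26 in wt, against 12.2% and 7.88% of all genes, and 0 members were 1.5-fold lower, against 8.05% and 7.33%.

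With the genotypes as repeats, limma called 27 of the 39 members higher in CD8-equivalent DCs and 0 lower, where it called 7.98% of all 10239 genes higher and 6.35% lower. At an unadjusted p under 0.05, 37 members were higher and 0 lower, against 20.3% and 13% of all genes. The calls with the smallest adjusted p were for Kif2c, which rose by 1.01 ± 0.12 (SE) (adjusted p = 0.0133 by limma), Nek2 by 1.10 ± 0.13 (SE) (adjusted p = 0.0138) and Mad2l1 by 0.97 ± 0.13 (SE) (adjusted p = 0.0162). Kif2c was higher in CD8-equivalent DCs by 1.96-fold in ko and 2.09-fold in wt, Nek2 by 1.95-fold in ko and 2.34-fold in wt and Mad2l1 by 1.8-fold in ko and 2.14-fold in wt. All 5 kinetochore genes and all 4 checkpoint genes were called, Ttk with 0.84 ± 0.12 (SE) and Cenpe with 0.80 ± 0.12 (SE). So were 5 of 6 spindle genes, 3 of 4 mitotic kinases, 2 of 3 genes of the Cdk1 and cyclin group (Cdk1 and Ccnb2) and 2 of 4 passenger genes (Incenp and Cdca8). Of the 8 midzone and cytokinesis genes 4 were called, Ect2, Cep55, Kif4 and Kif20a. The 12 members not called were Ccna2, Plk1, Aurkb, Birc5, Nusap1, Kif23, Prc1, Racgap1, Anln, Ube2c, Cdca3 and Mki67. Kif23, which also has the lowest subset difference, was higher in CD8-equivalent DCs by 0.16 in ko and 0.22 in wt (adjusted p = 0.321 by limma). The count was 19 after cyclic loess normalisation, 36 with the trended and robust prior, and 0 without a genotype term in the model (23 at an unadjusted p under 0.05).

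**Figure D4:**
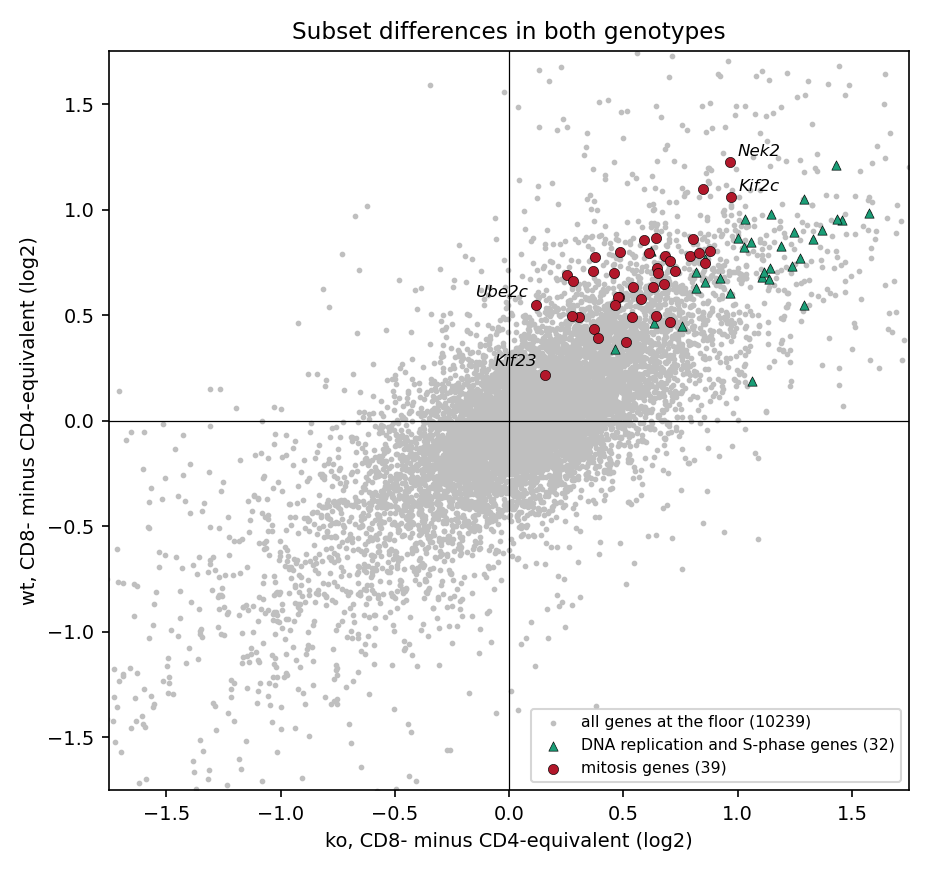
Difference of CD8- minus CD4-equivalent DCs (log2) in ko (x axis) and in wt (y axis) for all 10239 genes at the floor (grey), replication and S-phase genes (green triangles) and mitosis genes (red circles). All 39 mitosis genes lie above 0 on both axes, with most S-phase genes further right. Of all genes, 252 lie beyond the axes.

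In Anln, as in Cenpf, Kif23 and Prc1, the genotype difference was the larger of the 2. In Cenpf they were nearly equal, at 0.73 for genotype and 0.72 for subset. The subset difference of Anln, 0.39, was smaller than its genotype difference of 0.96. Its ko CD4-equivalent value lay 0.57 above its wt CD8-equivalent value. Mad2l1 and Kif2c lay at the other end, with subset differences of 0.97 and 1.01 beside genotype differences of 0.21 and 0.42. Between the genotypes the subset differences of the 39 members, again from separate arrays, correlated with a Pearson r of 0.68 and a Spearman rho of 0.64, as a description.

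Other cell cycle genes were read from further lists to place the mitosis genes. Genes of DNA replication and S phase, which comes before G2 and mitosis, gave other counts in CD4-equivalent DCs. There 9 of 32 were higher in ko, with a median of -0.05, beside 36.2% and a median of -0.08 for all genes. Of the mitosis genes 39 of 39 were higher there, with a median of 0.45. After cyclic loess that S-phase count was 21 of 32 and its median 0.07, with the sign turned, beside 39 of 39 and 0.55 for mitosis genes. In CD8-equivalent DCs 31 of 32 S-phase genes were higher in ko, beside 50.7% of all genes, with a median of 0.26 beside 0.33 for mitosis genes. The helicase gene Mcm4 read 10.48 in ko and 10.28 in wt CD8-equivalent DCs, and 9.19 in ko and 9.73 in wt CD4-equivalent DCs. The thymidylate synthase gene Tyms read 10.21 in ko and 10.01 in wt CD8-equivalent DCs, and 8.94 in ko and 9.23 in wt CD4-equivalent DCs. Both were lower in ko than in wt CD4-equivalent DCs and higher in ko than in wt CD8-equivalent DCs. They lie toward the low end of the S-phase list, which ran from -0.54 (Mcm4) to 0.37 (Tk1) in CD4-equivalent DCs. Between subsets the S-phase genes were higher in CD8-equivalent DCs by a median of 1.11 in ko and 0.77 in wt, and limma called 30 of 32 higher for subset, beside 7.98% of all genes, and 0 for genotype (0 also at an unadjusted p under 0.05). No test of one list against the other was made.

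Lists closer to mitosis itself were counted beside the same 50.7% of all genes in CD8- and 36.2% in CD4-equivalent DCs. All 11 genes of mitotic entry control read higher in ko than in wt, whichever the subset, with medians of 0.34 in CD8- and 0.31 in CD4-equivalent DCs. Of these the phosphatase gene Cdc25b, which switches Cdk1 on, read 8.71 in ko and 8.23 in wt CD8-equivalent DCs, and 9.08 in ko and 7.97 in wt CD4-equivalent DCs, and it was the only gene of these cell cycle lists to reach 2-fold between genotypes in either subset. Of 30 further kinetochore genes, 27 were higher in ko CD8-equivalent and 24 in ko CD4-equivalent DCs (medians 0.31 and 0.25). Condensin and cohesin genes were higher in ko in 19 and 14 of 20 (medians 0.33 and 0.12). Genes of the APC/C and 3 of its regulators (Fzr1, Ube2s and Fbxo5) were higher in 9 and 8 of 15 (medians 0.11 and 0.02), and its 12 subunit genes alone in 7 and 5 of 12 (7 and 9 after cyclic loess). The G1 cyclins, their kinases and Myc at or above the floor were higher in 6 and 4 of 7 (medians 0.28 and 0.01, and 6 and 3 with arrays centred). CDK inhibitors at or above the floor were higher in 3 and 3 of 3. Of 7 inhibitors listed 6 were measured, and 3 of those lay below the floor on each array. Cyclin D1, gene Ccnd1, read 12.47 in ko and 11.95 in wt CD8-equivalent DCs, and 12.24 in ko and 12.11 in wt CD4-equivalent DCs, and the inhibitor gene Cdkn1b (p27) 10.72 in ko and 10.50 in wt CD8-equivalent DCs, and 10.77 in ko and 10.58 in wt CD4-equivalent DCs. Of these lists limma called 0 genes for genotype. At an unadjusted p under 0.05 it gave 12 of 30 further kinetochore genes, 5 of 20 condensin and cohesin genes, 4 of 11 entry genes, 2 of 15 APC/C genes (Cdc27, a subunit, and Fbxo5, an inhibitor) and 1 of 7 G1 genes (Cdk6) higher in ko, and 0 lower. Of all genes, 7.34% were higher and 8.27% lower in ko at that limit. For subset, limma called 19 further kinetochore genes, 10 entry genes, 6 condensin and cohesin genes, the APC/C inhibitor gene Fbxo5, 1 G1 gene (Cdk6) and 1 CDK inhibitor (Cdkn2c) higher in CD8-equivalent DCs and 0 lower, beside 7.98% of all genes higher.

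Of the transcription factors behind these genes, Foxm1 and Mybl2 are the main activators of G2 and mitosis genes. Foxm1 read 10.06 in ko and 9.44 in wt CD8-equivalent DCs, and 9.57 in ko and 8.83 in wt CD4-equivalent DCs. Its ko minus wt differences were 0.61 and 0.74 (adjusted p = 0.101 by limma). Mybl2, which encodes B-Myb, read 8.44 in ko and 8.12 in wt CD8-equivalent DCs, and 7.34 in ko and 7.27 in wt CD4-equivalent DCs, differences of 0.33 and 0.07. Over the 19 genes of the list, 14 were higher in ko CD8-equivalent and 9 in ko CD4-equivalent DCs, with medians of 0.27 and -0.01 (after cyclic loess 14 and 13, medians 0.28 and 0.11). Above 0 were 50.7% of all genes in CD8- and 36.2% in CD4-equivalent DCs, and 51.4% in either after cyclic loess. Limma called 0 of the 19 for genotype (4 higher and 2 lower in ko at an unadjusted p under 0.05) and 7 higher in CD8-equivalent DCs, Foxm1 and Mybl2 among them. Of all genes, 7.34% were higher and 8.27% lower in ko at that unadjusted limit, and 7.98% were called higher in CD8-equivalent DCs.

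**Figure D5:**
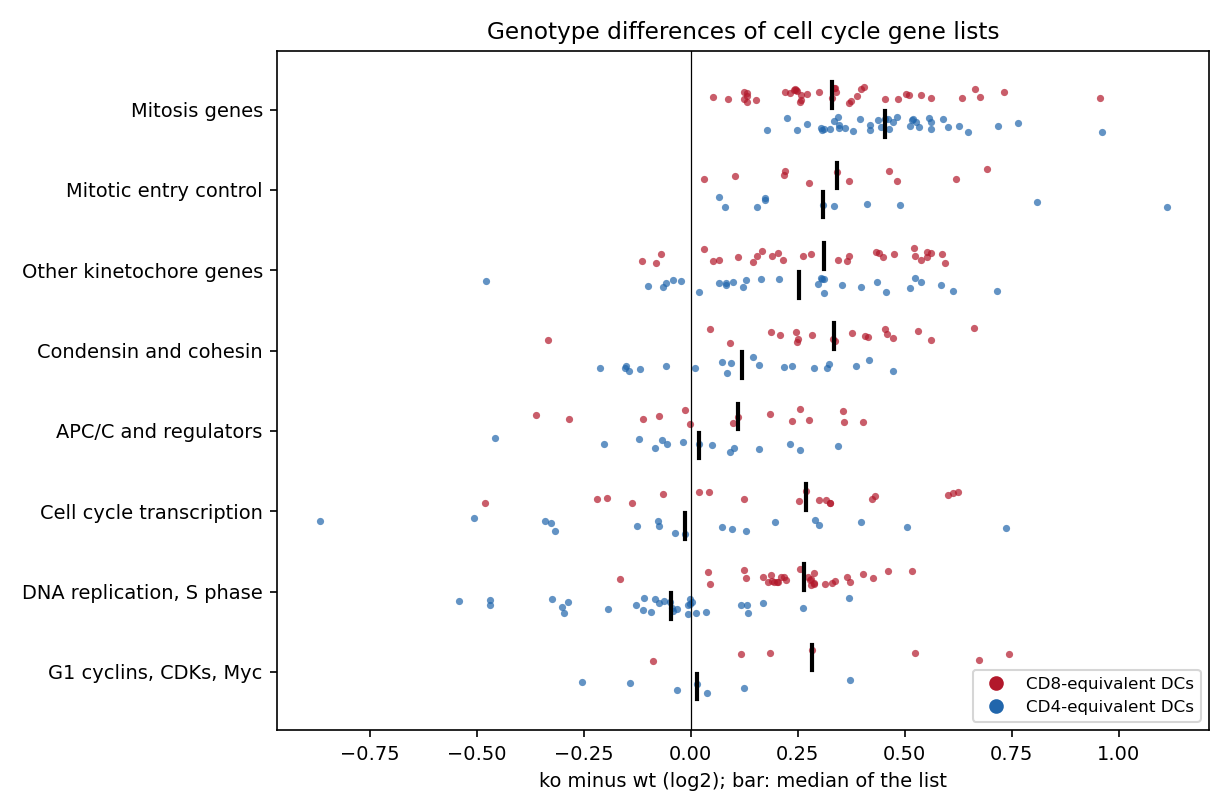
Difference of ko minus wt (log2, x axis) for the genes of 8 cell cycle lists (rows), in CD8-equivalent (red) and CD4-equivalent DCs (blue). Each point is 1 gene at or above the floor on either array and each bar a list's median. All mitosis and entry genes lie right of 0 in both subsets, while the S-phase medians fall on either side of 0 (both above 0 after cyclic loess).

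Markers of cells other than mature DCs also differed between the arrays, and some dividing cell types are among them. The 12 progenitor markers averaged 9.40 in ko and 8.68 in wt CD8-equivalent DCs, and 8.50 in ko and 8.02 in wt CD4-equivalent DCs, which is the order of most mitosis genes. Markers were compared when their higher value reached the floor. A marker below it on a single array could therefore only read higher on the other. Of the progenitor markers compared, 8 of 11 were higher in ko CD8-equivalent and 7 of 10 in ko CD4-equivalent DCs. Of all genes, 50.7% and 36.2% were higher in ko in these comparisons, which are the shares for the other marker lists too. Hoxa9, the only marker or cell cycle gene of these lists that limma called for genotype, read 9.59 in ko and 6.57 in wt CD8-equivalent DCs, and 8.82 in ko and 5.36 in wt CD4-equivalent DCs (adjusted p = 0.00947 by limma). Myb read 10.93 in ko and 10.00 in wt CD8-equivalent DCs, and 8.74 in ko and 7.63 in wt CD4-equivalent DCs, Kit read 9.16 in ko and 9.76 in wt CD8-equivalent DCs, and 8.24 in ko and 8.11 in wt CD4-equivalent DCs, and Gata2 lay below the floor on all arrays. The 9 plasmacytoid DC markers averaged 9.95 in ko and 9.83 in wt CD8-equivalent DCs, and 9.17 in ko and 8.33 in wt CD4-equivalent DCs, with 7 of 9 and 8 of 9 higher in ko. The 17 neutrophil markers averaged 5.35 in ko and 5.13 in wt CD8-equivalent DCs, and 7.12 in ko and 5.63 in wt CD4-equivalent DCs, and 14, 15, 4 and 11 of them lay below the floor in that order of arrays. In ko CD4-equivalent DCs 11 of the 13 neutrophil markers compared were higher than in wt, and Ngp read 9.47 in ko against 5.61 in wt. By at least 2-fold 9 were higher, beside 1.39% of all genes. Ngp and Mpo were among those below the floor in wt alone, which could only read higher in ko. Mmp8 (7.79 in ko against 8.48 in wt) and Csf3r (7.09 against 7.83) were lower in ko CD4-equivalent DCs. In CD8-equivalent DCs 3 of the 3 neutrophil markers compared were higher in ko (median 1.69), where Mpo was again below the floor in wt alone. These were Mpo, Ctsg and Prtn3, granule genes of neutrophil precursors. Mpo read 7.55 in ko and 4.79 in wt CD8-equivalent DCs, and 7.02 in ko and 5.18 in wt CD4-equivalent DCs. Macrophage and monocyte markers were lower in ko than in wt CD8-equivalent DCs in 9 of 9 and averaged 7.17 in ko and 8.34 in wt CD8-equivalent DCs, and 9.45 in ko and 9.40 in wt CD4-equivalent DCs. In CD8-equivalent DCs 6 of them lay below the floor in ko and 2 in wt, and those below it in ko alone could only read lower in ko. Markers of CD8-equivalent DCs (cDC1) averaged 9.87 in ko and 10.17 in wt CD8-equivalent DCs, and 9.36 in ko and 8.56 in wt CD4-equivalent DCs. Of the cDC1 markers compared, 3 of 11 were higher in ko CD8-equivalent and 8 of 10 in ko CD4-equivalent DCs. Markers of CD4-equivalent DCs (cDC2) averaged 8.47 in ko and 8.42 in wt CD8-equivalent DCs, and 10.35 in ko and 10.48 in wt CD4-equivalent DCs. Erythroid and megakaryocyte markers, mast cell and basophil markers, and markers of B, T and NK cells each averaged below the floor on all arrays, between 4.90 and 5.46, and 4 of their genes reached it. Nkg7 read 8.09 in ko and 7.28 in wt CD8-equivalent DCs, and 5.12 in ko and 4.95 in wt CD4-equivalent DCs. Cd79b read between 9.60 and 9.90 on the 4 arrays. Ppbp and Cpa3 were highest in ko CD8-equivalent DCs, at 6.78 and 5.93. The part of any of these cells in the mitosis gene differences was not tested.

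Another scaling between arrays shifted the background and the members alike. After cyclic loess the share of all genes above 0 in CD4-equivalent DCs was 51.4%, against 36.2% as deposited, and 32.6% of genes had the higher value in ko in CD8- and in CD4-equivalent DCs alike. All 39 members remained above 0 in each of the 4 pairwise comparisons, with median genotype differences of 0.34 in CD8- and 0.55 in CD4-equivalent DCs and median subset differences of 0.48 in ko and 0.65 in wt. In ko the median of all genes for CD8- minus CD4-equivalent DCs moved by -0.12, from 0.11 as deposited, while the members' median was 0.59 as deposited.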

How the data were processed

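Total RNA of 4 sorted dendritic cell populations was hybridised to 1 Affymetrix array each. Each deposited value is a log2 summary of the probes of a set, made with RMA and Partek, per the submitters' processing notes, without versions. RMA normalises the arrays together, and the log base was inferred from values between 3.52 and 14.3. Array medians ran from 5.87 to 5.94.

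Of 35399 probe sets, the 21789 with 1 symbol in the platform annotation were used, and 21698 of them matched a RefSeq gene ID. Pairwise differences used genes whose higher value reached the floor and carry no test. The model of genotype and subset was fitted with limma 3.58.1 in R 4.3.3 over 10239 genes, with 1 residual and 3.98 prior degrees of freedom, two-sided, and Benjamini-Hochberg adjustment at 0.05. Motifs were searched with Python 3.11.15 in RefSeq windows of GRCm38.p6.

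The members and all lists were chosen with earlier results of these data known, so their direction is no independent evidence. Every member may be named. Full values are given for the genes with the largest and the smallest mean genotype difference of each role. Of other lists, genes called by limma or at least 2-fold apart may be named, with Foxm1, Mybl2, Cdkn1b, Ccnd1, Mcm4 and Tyms. Single markers (Myb, Kit, Gata2, Ngp, Mpo, Ctsg, Prtn3, Mmp8, Csf3r, Nkg7, Cd79b, Ppbp, Cpa3), and Tk1, Cdc27, Fbxo5 and the split of the APC/C list, were picked after their values were seen. Alternatives were cyclic loess, median centring, no floor, a floor 1 log2 unit higher, the mean of all probe sets, a trended robust prior, a model without the other factor and a 1.5-fold threshold.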

Additional observations from a re-analysis of the deposited data

Results flagged for a closer look

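Genes outside the mitosis set had differences of opposite sign in the paired comparisons, and none of these contrasts between differences was tested, because each group holds 1 array. The cyclin D1 gene Ccnd1 differed between CD8- and CD4-equivalent DCs by 0.24 in ko and by -0.16 in wt. The replicative helicase gene Mcm4 differed between ko and wt by 0.20 in CD8-equivalent DCs and by -0.54 in CD4-equivalent DCs. The thymidylate synthase gene Tyms differed between ko and wt by 0.20 in CD8-equivalent DCs and by -0.30 in CD4-equivalent DCs. All are on the log2 scale. None of the 39 mitosis genes had opposite signs in either pair of comparisons.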

How the results depend on the processing

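The genotype model called 0 mitosis genes as fitted, 1 with a floor 1 log2 unit higher (Anln), and 5 with the trended robust prior. For subset it called 27 as fitted and 0 without a genotype term. With 1.5-fold in place of 2-fold, members higher in ko were 5 in CD8- and 7 in CD4-equivalent DCs, and members higher in CD8-equivalent DCs were 20 in ko and 26 in wt. After cyclic loess 1 member, Anln, reached 2-fold for genotype in CD4-equivalent DCs. For single genes, 486 results kept their side of the threshold, 43 lost their call and 17 gained one. Over all genes, genotype calls numbered 17 as fitted, 53 after centring, 3 without a floor, 120 with the higher floor, 307 with the trended prior and 0 without the subset term. Subset calls numbered 1467 as fitted, 946 without a floor and 99 without the genotype term. After cyclic loess, 44.5% of subset calls were higher in CD8-equivalent DCs, against 55.7% as deposited. At 1.5-fold the share higher was 66.3% after loess against 51.7% for genotype in CD4-equivalent DCs, and 43.5% against 60.2% for subset in ko. Averaging probe sets turned the sign of Top2a's subset difference in ko, to -0.07. The cause of these changes was not tested. No paired analysis was possible because the labels give 1 array a group and no replicate numbers, although the model itself has the other factor as a block. Leaving out an array leaves no residual degree of freedom and no test.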
